A study of Mus musculus with 24 samples.

Results

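The 8 genes described here are Angptl4 and Angptl6 of the angiopoietin-like proteins, the lipases Lpl, Lipc and Lipg, the lipase partners Gpihbp1 and Lmf1, and the receptor Vldlr. They were chosen by name: every gene probe of the array whose gene name equals one of the 8 was taken, which gave 16 of 56605 probes and 8 of 37074 gene names. All 16 probes passed the filter on dim probes, which kept a probe once 4 of the 6 arrays of some group read it well above background, and 21331 genes were tested in all. The RNA came from whole livers of 24 male C57Bl/6J mice, 6 in each of 4 groups, hybridised to 1 single-colour Agilent array per mouse. The title of the series sets apart mice with hepatocyte PPARα, here LWT, from mice without it, LKO. The promoter or Cre line behind the loss, the deleted part of Ppara and the ages of the mice are not given in the sources used here. In each genotype, 6 mice were gavaged at ZT10, where ZT0 is lights on, with CL316243 at 3 mg/kg, an agonist of the beta3 adrenergic receptor, and 6 with its vehicle, 0.5% carboxymethyl cellulose. All 24 mice ate a standard diet freely and were killed at ZT16.

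Triglyceride in circulating lipoproteins is hydrolysed on the wall of blood vessels by lipases of one family. Lipoprotein lipase (Lpl) is made mainly by fat, muscle and heart and little by adult liver, hepatic lipase (Lipc) by hepatocytes, and endothelial lipase (Lipg), which prefers phospholipids of high-density lipoprotein, by several cell types. Lmf1 is needed in the endoplasmic reticulum for these lipases to fold, Gpihbp1 carries lipoprotein lipase to the capillary lumen, Angptl4 inhibits it, and Vldlr takes up triglyceride-rich particles and their remnants. Angptl4 is a textbook target of PPAR nuclear receptors.

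Values are log2 signals minus the 75th percentile of the same array, so a level of 0 equals that percentile, and levels of different genes or probes cannot be set against each other. For a gene with several probes the brightest represents it, and differences come from one limma model of all 24 arrays, with p-values adjusted by the Benjamini-Hochberg method over the 21331 genes. A gene is said to have risen or fallen, or to have been called, at an adjusted p under 0.05. The array's 75th percentile lay between 397 and 578 intensity units, and between 26985 and 34202 probes per array were well above background. The 5 hepatocyte markers tested were Alb, Ttr, Apoa1, Apob and Fgb. Their mean log2 level ran from 8.48 to 8.64 in vehicle LWT and 8.66 to 8.91 in treated LWT. In LKO it ran from 8.49 to 8.83 with vehicle and 8.58 to 8.86 with CL316243. With CL316243, 1 of the 5, Fgb, rose in LWT (0.54), where 38.3% of all genes were called. In LKO, 3 of the 5 were called, Fgb (0.69) and Apob (0.22) higher and Apoa1 (-0.25) lower, against 40.3% of all genes. Ppara, the check of the genotype, was lower in LKO than in LWT by 1.91 on the log2 scale under CL316243 (adjusted p 3.6e-07). Under vehicle its log2 difference was -0.68 (adjusted p 0.158), with no overlap between the groups, as for 1.80% of all genes. That of its dimmer probe was -0.92 (adjusted p 0.0188). CL316243-treated LKO mouse 3 had the lowest Ppara level of its group, 3.06 against a group median of 4.51. Values without this mouse are given for Angptl4, Lpl and Lipg.

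With CL316243, 4 of the 8 genes were called in LWT livers: Angptl4, Lipg and Gpihbp1 rose and Lpl fell. Of all genes tested, 38.3% were called in that comparison, 18.9% higher and 19.4% lower. In LKO livers 3 of the 8 were called, Angptl4 and Gpihbp1 higher and Lipc lower, where 40.3% of all genes were called, 20.9% higher and 19.4% lower. The response to CL316243 differed between the genotypes for Lipc and Lipg, 2 of the 8, against 5.41% of all genes in that test, 3.24% with the lower response in LKO, as seen for both, and 2.17% with the higher. Between the genotypes, 1 of the 8, Lpl, was called under vehicle, against 1.18% of all genes, and it was lower in LKO, as 0.778% were, while 0.398% were higher. Under CL316243, Angptl4, Lpl and Lipg were lower in LKO, 3 of the 8, against 15.9% of all genes, 8.17% in that direction and 7.74% in the other. The median log2 difference of the 8 genes ran from -0.25 to -0.04 over the 5 comparisons and that of all genes from -0.02 to 0.03. Comparisons that share a group of mice are set side by side here and are not independent.

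**Figure D1:**
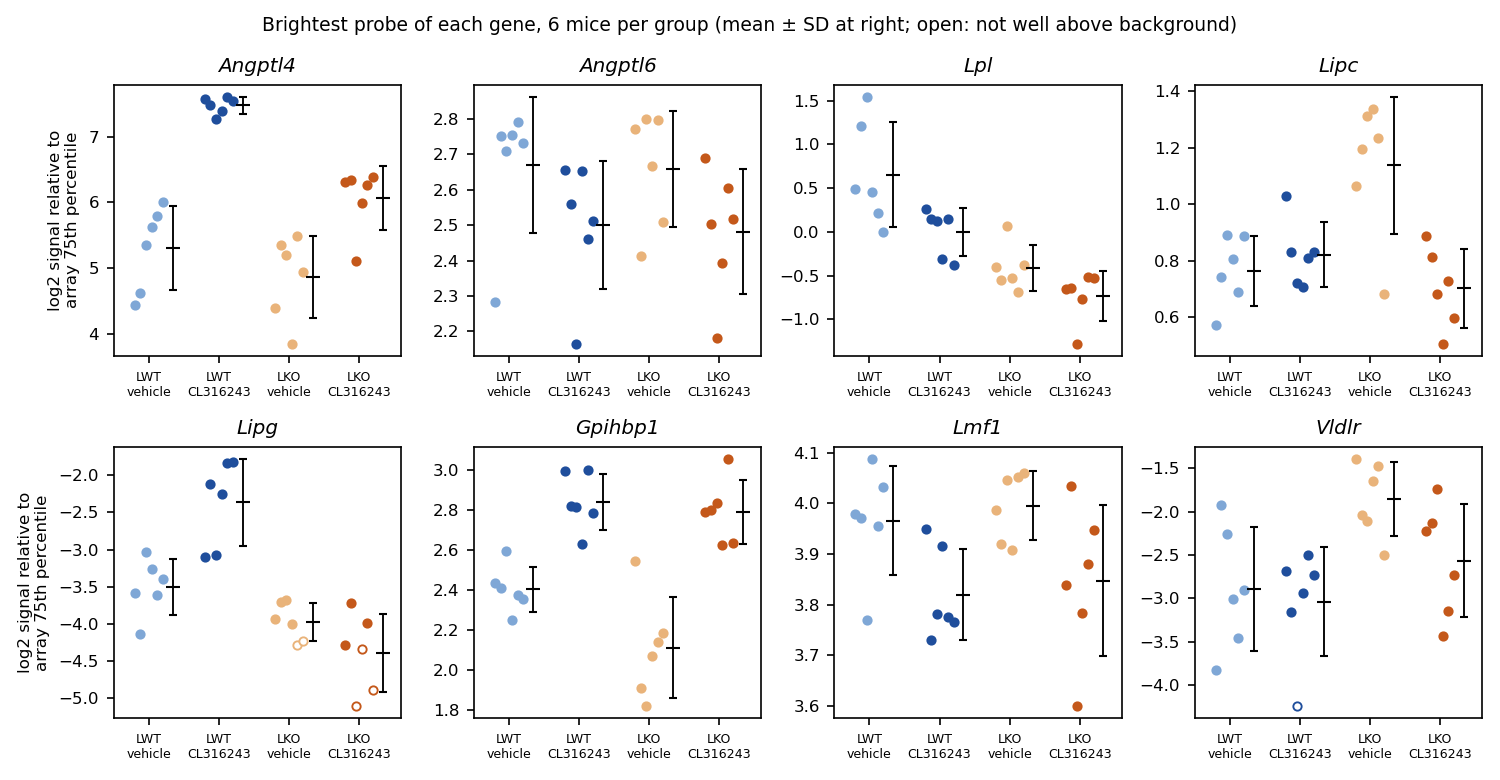
Level on the log2 scale, as a difference from the array's 75th percentile (vertical axis), of the brightest probe of each of the 8 genes in the 4 groups (horizontal axis). Each point is a mouse, open where the probe was not well above background, with the group's mean and SD (n = 6) at its right; Angptl4 in LWT mice given CL316243 (7.27 to 7.60) lies above the other 3 groups.

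Angptl4, an inhibitor of lipoprotein lipase, had the largest response to CL316243 of the 8 genes in both genotypes. Its probe starts at base 1808 of transcript NM_020581 (mm9, chr17:33911880-33911939, minus strand) and was well above background on all 24 arrays. Its level in LWT mice ran from 4.43 through a median of 5.48 to 6.01 with vehicle, and from 7.27 through 7.51 to 7.60 with CL316243. In LKO mice it ran from 3.85 through 5.06 to 5.48 with vehicle, and from 5.11 through 6.28 to 6.39 with CL316243. All 6 treated LWT mice therefore lay above all 12 vehicle mice and above all 6 treated LKO mice. Treated and vehicle LWT mice did not overlap for 20.4% of all genes. The treated LWT mice also lay close together, with an SD of 0.13 against 0.64 in their vehicle group.

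The rise in Angptl4 was 2.18 in LWT (SE 0.28, 4.52-fold, adjusted p 3.65e-06) and 1.20 in LKO (SE 0.28, 2.30-fold, adjusted p 0.00187). In LKO a single treated mouse, mouse 3, fell inside the vehicle range, and without it the rise was 1.39. Within the 3 slides of 8 arrays, which each carried 2 mice of every group, the LWT rise was 1.79, 2.85 and 1.89 and the LKO rise was 0.66, 1.48 and 1.46. The difference between these responses was -0.97 (95% confidence interval -1.81 to -0.14), which did not pass after adjustment (adjusted p 0.186). Under CL316243 the level in LKO was lower than in LWT by a log2 difference of -1.41 (SE 0.28, 2.66-fold, adjusted p 0.00114), and the 2 treated groups did not overlap, as for 6.57% of all genes; under vehicle the difference was -0.44 (interval -1.03 to 0.15, adjusted p 0.809). In order of mean level the groups ran from treated LWT (7.48) through treated LKO (6.07) and vehicle LWT (5.30) to vehicle LKO (4.86), and the last 2 of these did not differ beyond their spread.

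Across the 24 arrays the genes whose level went most closely with that of Angptl4 were Cln8, a protein of the endoplasmic reticulum (Pearson r = 0.94), Mgll, the monoglyceride lipase (r = 0.92), and Cidec, a lipid droplet protein (r = 0.92). With the group means removed, r was 0.77 for Cln8, 0.57 for Mgll and 0.35 for Cidec, so much of the likeness of the last lay between groups. These are descriptions over 24 mice that share 4 group means.

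Angptl6, an angiopoietin-like protein secreted by liver, was not called in any of the 5 comparisons. Its probe starts at base 1431 of NM_145154 (chr9:20678326-20678385, minus strand), and its medians were 2.74 and 2.53 in LWT with vehicle and CL316243, and 2.72 and 2.51 in LKO. The log2 differences with CL316243 were -0.17 in LWT (interval -0.39 to 0.05, adjusted p 0.212) and -0.18 in LKO (-0.39 to 0.04, adjusted p 0.182). Between genotypes they were -0.01 under vehicle (-0.23 to 0.20) and -0.02 under CL316243 (-0.23 to 0.20). All 4 groups overlapped, and the range of the 24 mice was 2.17 to 2.80. Its nearest patterns were Pde8b (r = 0.82), Adamts13 (r = 0.77) and Bmp5 (r = 0.77).

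Lpl has 6 probes on the array, numbered here from the brightest, and they did not show the same differences. Probe 1 starts at base 3484 of NM_008509 (chr8:71430267-71430326, plus strand). Probes 3 and 6 lie nearer the start of the same transcript, and probes 2, 4 and 5 were designed on other transcript models of the locus. Probe 2 is shown because it reads another transcript model, and probes 3 and 6 because they read earlier stretches of the transcript of probe 1; none of their bases is marked.
Lpl probe 2 (chr8:71413311-71413370): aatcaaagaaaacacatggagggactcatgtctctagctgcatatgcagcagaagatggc
Lpl probe 3 (chr8:71425050-71425109): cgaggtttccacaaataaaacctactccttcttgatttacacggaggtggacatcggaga
Lpl probe 6 (chr8:71419652-71419711): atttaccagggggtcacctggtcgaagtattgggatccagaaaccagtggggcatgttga

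At probe 1, Lpl was highest in vehicle LWT livers, from -0.01 through a median of 0.48 to 1.54, followed by treated LWT livers, from -0.38 through 0.14 to 0.26. In LKO it ran from -0.69 through -0.46 to 0.07 with vehicle and from -1.28 through -0.65 to -0.52 with CL316243. The treated LKO group lay wholly below both LWT groups, whereas vehicle LKO and vehicle LWT touched through 1 LKO mouse at 0.07. The 2 treated groups did not overlap for 6.57% of all genes. The log2 difference of LKO from LWT was -1.06 under vehicle (SE 0.21, 2.09-fold lower, adjusted p 0.00784) and -0.73 under CL316243 (SE 0.21, 1.66-fold lower, adjusted p 0.0195). Without treated LKO mouse 3 the latter was -0.62. Within the 3 slides the vehicle difference was -0.92, -1.32 and -0.95. With CL316243, Lpl fell in LWT by 0.65 (SE 0.21, 1.57-fold, adjusted p 0.0181), with within-slide differences of -1.11, -0.71 and -0.13. The fall rested on the highest vehicle mice: it was no longer called without vehicle LWT mouse 2 (-0.54, adjusted p 0.0531) or mouse 3 (-0.47, adjusted p 0.0522). In LKO the difference with CL316243 was -0.32 (interval -0.76 to 0.12, adjusted p 0.24), and the responses of the genotypes differed by 0.33 (-0.29 to 0.95), which did not pass.

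The other Lpl probes were tested in a fit of all 32037 kept probes. Probe 2, of another transcript model, gave a log2 difference between genotypes of -0.07 under vehicle (interval -0.31 to 0.18) and -0.13 under CL316243 (-0.37 to 0.12), and 0.26 with CL316243 in LWT (adjusted p 0.0834), a rise that was called without vehicle LWT mouse 3 (0.32, adjusted p 0.0406) or treated LWT mouse 4 (0.36, adjusted p 0.0103) and so ran against that of probe 1. Probe 3 gave differences of LKO from LWT that were not called, -0.41 under vehicle and -0.65 under CL316243 (adjusted p 0.834 and 0.19), although treated LKO (-3.34 to -2.87) and treated LWT mice (-2.74 to -1.97) did not overlap. It fell with CL316243 in LKO by 0.86 (adjusted p 0.0352), where probe 1 was not called. That call was lost without vehicle LKO mouse 2, which stood at -0.48 (-0.53, adjusted p 0.0984), without vehicle LKO mouse 3 (-0.87, adjusted p 0.0508) and without treated LKO mouse 3 (-0.79, adjusted p 0.0733). Without vehicle LKO mouse 2, the LWT difference of -0.62 at probe 3 was called (adjusted p 0.0452). Probes 4, 5 and 6 were called in none of the 5 comparisons, and probes 5 and 6 were well above background on only 10 and 8 of 24 arrays. With the mean of all 6 probes in place of probe 1, no Lpl difference was called: -0.56 for genotype under vehicle (adjusted p 0.277), -0.31 under CL316243 (adjusted p 0.333) and -0.48 for CL316243 in LWT (adjusted p 0.0556). That mean takes in the dim probes 5 and 6 and other transcript models, so it cannot tell whether the difference is confined to probe 1. Probes 2, 3 and 4, well above background on 24, 24 and 22 of 24 arrays, were also not called between genotypes. Under vehicle their adjusted p in the fit of all probes was 0.976, 0.834 and 0.642. Probes 5 and 6 passed the filter through vehicle LWT alone, with 5 and 4 of 6 arrays there well above background. Their genotype differences are therefore not read. Under vehicle probes 1 to 4 were lower in LKO, by log2 differences of -1.06, -0.07, -0.41 and -0.47, of which only the first was called. Under CL316243 the sign differed among these probes, from -0.73 at probe 1 to 0.08 at probe 4. The calls between genotypes, and that of the fall in LWT, are those of the probe at base 3484.

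In RNA of whole liver, fewer cells of a type and less RNA per cell cannot be told apart. Lpl is abundant in fat, and of 5 adipocyte markers Cfd was also lower in LKO, by a log2 difference of -3.61 under vehicle (adjusted p 0.0145) and -2.34 under CL316243 (adjusted p 0.0394), against none of Plin1, Lep and Retn. Cfd ran from -2.83 through -1.79 to 0.13 in vehicle LWT and from -6.85 through -6.01 to -1.39 in vehicle LKO. It was well above background on 2 of 6 arrays in vehicle LKO and 3 of 6 in treated LKO. Both Cfd differences therefore rest in part on values not well above background. Adipoq did not pass the filter and was well above background on 6 of 24 arrays. The mean log2 level of the 4 markers tested ran from -2.83 to -1.97 in vehicle LWT and -2.97 to -2.49 in treated LWT. In LKO it ran from -3.88 to -2.39 with vehicle and -3.46 to -2.86 with CL316243. Cfd is among these 4. Under vehicle the log2 differences of LKO from LWT were -0.07 for Plin1, -0.04 for Lep and 0.09 for Retn. The part of adipocyte RNA in the Lpl difference was not tested. The nearest patterns to Lpl were Ap1b1 (r = 0.81), Mpp1 (r = 0.79) and Abcd2 (r = 0.78), each at 0.42 or less once group means were removed.

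Lipc, the hepatic lipase, fell with CL316243 in LKO livers, and its response differed between the genotypes. Its probe starts at base 1020 of NM_008280 and its ends lie apart on the genome (chr9:70660699-70664375, minus strand), so that its 60 bases join sequence of more than 1 exon and read spliced RNA; it is shown for that reason, with no base marked.
Lipc probe: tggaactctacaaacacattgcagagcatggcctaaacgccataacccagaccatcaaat

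Lipc ran from 0.57 through a median of 0.77 to 0.89 in vehicle LWT and from 0.71 through 0.82 to 1.03 in treated LWT. In LKO it ran from 0.68 through 1.21 to 1.34 with vehicle and from 0.51 through 0.71 to 0.89 with CL316243. In the vehicle LKO group 5 of 6 mice lay above every mouse of the other 3 groups, and mouse 6, at 0.68, lay among the treated ones. The log2 difference with CL316243 was -0.43 in LKO (SE 0.10, 1.35-fold lower, adjusted p 0.001) and 0.06 in LWT (interval -0.14 to 0.26, adjusted p 0.68). Within the 3 slides the LKO difference was -0.25, -0.39 and -0.67.

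The 2 responses of Lipc differed by -0.49 (SE 0.14, adjusted p 0.0333), and by -0.13, -0.51 and -0.84 within slides. This call lay near the threshold. It was lost on leaving out any one of 11 mice, namely vehicle LWT mouse 1 or 5, treated LWT mouse 1, 2 or 5, vehicle LKO mouse 2, 3, 4 or 5 and treated LKO mouse 4 or 6, with differences of -0.49 to -0.45 and adjusted p of 0.0503 to 0.0643. Under vehicle LKO was higher than LWT by a difference of 0.37 (1.29-fold) that did not pass (adjusted p 0.0595), and that did without vehicle LKO mouse 6 (0.46, adjusted p 0.00207). Under CL316243 the difference was -0.12 (interval -0.32 to 0.08, adjusted p 0.465). The nearest patterns were Mug2 (r = 0.87), Tmbim6 (r = 0.86) and Ces2a (r = 0.85), with r of 0.74, 0.67 and 0.76 after group means were removed.

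RefSeq promoter windows (GRCm38.p6, 250 bases before to 50 after a start site) were at hand for 4 of the 8 genes, Angptl6, Lipc, Lmf1 and Vldlr, with 2 start sites each for Lipc and Vldlr. They were searched on both strands for the PPAR element (AGGTCA repeated after a gap of 1 base), for AGGTCA alone, which the element contains, the cAMP element TGACGTCA, the shorter TGACG, which it contains, the FoxO motif GTAAACA and the E-box CACGTG. The PPAR element was in none of the 6 windows and in 0.0396% of 32851 windows of all genes. The second window of Lipc held AGGTCA once on each strand, starting 88 and 76 bases before the start site, a motif present in 16.3% of all windows, and the Lmf1 window held TGACG once, as 20.8% did. No other match was found, and a match describes the letters only. The Lipc window (chr9:70934759-70935058, minus strand) is shown because it is the one window with AGGTCA among these genes; capitals mark the matches.
Lipc second window: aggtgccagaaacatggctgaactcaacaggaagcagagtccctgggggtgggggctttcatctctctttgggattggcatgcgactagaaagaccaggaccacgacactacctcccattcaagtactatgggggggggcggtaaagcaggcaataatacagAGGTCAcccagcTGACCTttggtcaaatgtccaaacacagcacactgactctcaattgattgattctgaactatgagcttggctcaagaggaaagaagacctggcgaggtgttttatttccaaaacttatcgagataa

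Lipg, the endothelial lipase, rose with CL316243 in LWT livers, and its response differed between the genotypes. Its 2 probes start at bases 1554 and 3074 of NM_010720. At the brighter probe the level ran from -4.13 through a median of -3.49 to -3.04 in vehicle LWT and from -3.10 through -2.19 to -1.82 in treated LWT. In LKO it ran from -4.29 through -3.97 to -3.68 with vehicle and from -5.10 through -4.31 to -3.72 with CL316243. Treated LWT mice lay above all treated LKO mice, and such non-overlap was found for 6.57% of all genes. Both LKO groups lay near the array's detection limit, with 4 and 3 of 6 arrays well above background.

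The log2 difference with CL316243 was 1.14 in LWT (SE 0.25, 2.20-fold, adjusted p 0.00101) and -0.41 in LKO (interval -0.93 to 0.11, adjusted p 0.198). The difference of these responses was -1.55 (SE 0.35, adjusted p 0.0101), and -1.64, -2.03 and -0.98 within slides. Under CL316243 the measured LKO level was 4.06-fold lower than in LWT (-2.02, SE 0.25, adjusted p 3.25e-06), with 3 of 6 LKO arrays well above background. Without treated LKO mouse 3 the difference was -1.88. Under vehicle the difference was -0.47 (interval -0.99 to 0.05, adjusted p 0.695). Sizes at this dim probe differed between processings, while these 3 calls were made in each: with normexp correction the LWT response was 0.62, the difference of responses -0.60 and the genotype difference under CL316243 -0.78, and from the authors' deposited series table they were 0.68, -0.85 and -1.09.

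The dimmer Lipg probe also rose with CL316243 in LWT by 1.73 (SE 0.32, adjusted p 0.000204), from a median of -3.92 to -2.02. For its genotype differences, LKO arrays not well above background were put at the dimmest signal that was. Its LKO level was then 4.64-fold lower under CL316243, with 1 of 6 LKO arrays well above background. Under vehicle it was 1.80-fold lower, with none of 6 LKO arrays well above background. These sizes are not strict lower bounds, since a signal not well above background can exceed that dimmest signal. At the brighter probe, vehicle LKO mouse 5 was such a case (-4.29 against -4.50). No test was run on either size. The limma fit of the measured values gave adjusted p 5.71e-07 under CL316243 and 0.0125 under vehicle. Most LKO values in that fit were not well above background. The brighter probe was not called under vehicle. With CL316243 in LKO, and so for the difference of responses, no size or sign can be read at this probe, since 1 of the 12 LKO arrays was well above background. The nearest patterns to Lipg were Impa2 (r = 0.90), Mtor (r = 0.89) and Adck2 (r = 0.89).

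**Figure D2:**
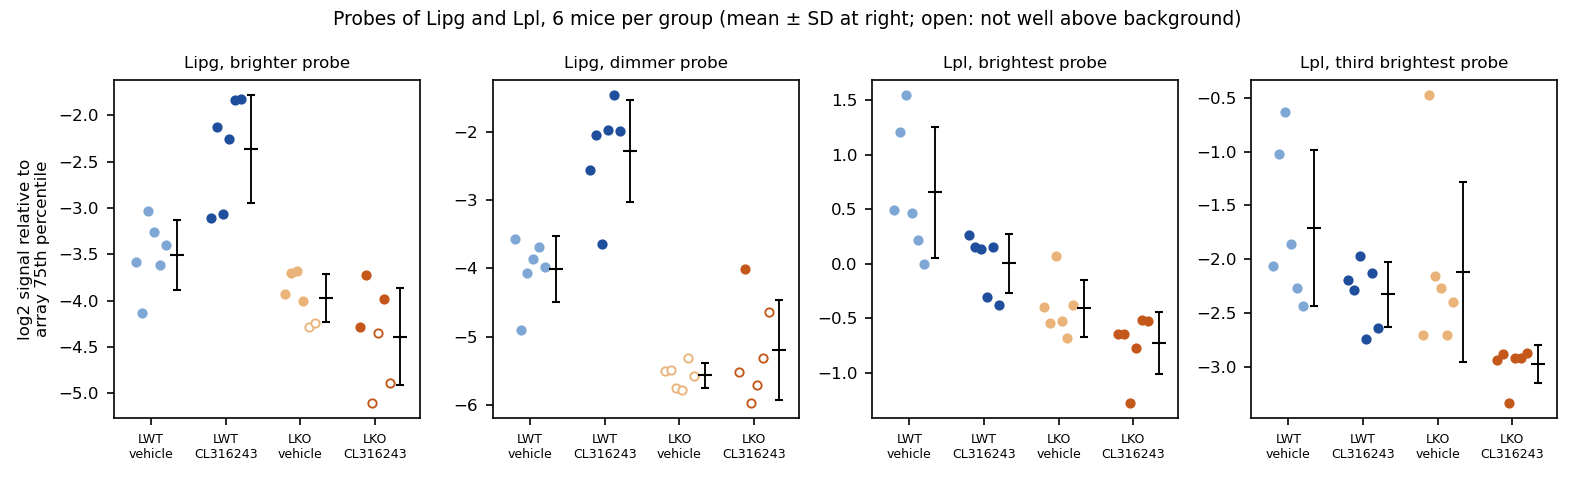
Level on the log2 scale, as a difference from the array's 75th percentile (vertical axis), of both Lipg probes and Lpl probes 1 and 3, by group (horizontal axis); points are mice, open where not well above background, with mean and SD (n = 6) at the right. Both Lipg probes are highest in treated LWT mice, and at the dimmer one all 6 vehicle LKO mice are open points; a single vehicle LKO mouse stands at -0.48 at Lpl probe 3.

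Gpihbp1, which carries lipoprotein lipase across capillary endothelium, rose with CL316243 in both genotypes with no overlap between treated and vehicle mice. Non-overlap of the same kind was found for 20.4% of all genes in LWT and 20.8% in LKO. The probe starts at base 637 of NM_026730 (chr15:75428484-75428543, plus strand); it is the array's sole probe for the gene and is shown as such, with no base marked.
Gpihbp1 probe: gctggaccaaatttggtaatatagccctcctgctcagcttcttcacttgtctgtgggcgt

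Gpihbp1 ran from 2.25 through a median of 2.39 to 2.59 in vehicle LWT and from 2.63 through 2.82 to 3.00 in treated LWT. In LKO it ran from 1.82 through 2.11 to 2.54 with vehicle and from 2.62 through 2.79 to 3.05 with CL316243. The 2 treated groups covered nearly the same range, and the vehicle groups overlapped as well. The rise was 0.44 in LWT (SE 0.10, 1.35-fold, adjusted p 0.00158) and 0.68 in LKO (SE 0.10, 1.60-fold, adjusted p 2.13e-05), and within slides 0.23, 0.39 and 0.68 in LWT and 0.81, 0.48 and 0.73 in LKO. The responses differed by 0.24 (interval -0.06 to 0.54, adjusted p 0.406). Between genotypes the log2 difference was -0.29 under vehicle (adjusted p 0.286), which passed without vehicle LKO mouse 1 (-0.38, adjusted p 0.0401), and -0.05 under CL316243 (interval -0.26 to 0.16).

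Gpihbp1 is a gene of endothelial cells, and markers of those cells moved in both directions. Of 9 tested, Lyve1 and Pecam1 rose in LWT with CL316243, by 1.18 and 0.49, and Kdr and Emcn fell, by 0.40 and 0.31 (adjusted p 0.00799, 0.00613, 0.0492 and 0.0128). In LKO Lyve1 rose by 2.39 (adjusted p 1.16e-05), and Kdr and Tek fell, by 0.56 and 0.53 (adjusted p 0.00626 and 0.0211). The mean log2 level of the 9 ran from 0.43 to 0.83 in vehicle LWT, 0.65 to 0.87 in treated LWT, 0.32 to 0.72 in vehicle LKO and 0.61 to 0.83 in treated LKO, and its part in the rise of Gpihbp1 was not tested. Lyve1, a receptor of sinusoidal endothelium, was also among the 3 nearest patterns to Gpihbp1 (r = 0.89, and 0.60 with group means removed), after Phactr4 (r = 0.90) and Bmp2k (r = 0.89).

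Lmf1, the maturation factor of the lipases, was not called at its brighter probe, which starts at base 1695 of NM_029624 (chr17:25799606-25799665, plus strand). Its medians were 3.97 and 3.78 in LWT with vehicle and CL316243 and 4.02 and 3.86 in LKO, and the groups overlapped. The log2 differences with CL316243 were -0.15 in both genotypes (intervals -0.29 to -0.0049 and -0.29 to -0.0063; adjusted p 0.0966 and 0.089). Small shifts of setting moved these across the threshold: the LWT difference was called after quantile normalization (-0.18, adjusted p 0.0451), in the authors' deposited series table (-0.17, adjusted p 0.0491) and without vehicle LWT mouse 3 (-0.19, adjusted p 0.0352). The LKO difference was called with normexp (-0.16, adjusted p 0.0474), with the mean of both probes (-0.27, adjusted p 0.00608) and without treated LKO mouse 2 (-0.19, adjusted p 0.0379). Genotype differences were 0.03 under each treatment (adjusted p 0.997 and 0.849).

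The dimmer Lmf1 probe, at base 455 and so nearer the start of the transcript, is shown because it differed from the brighter one; no base is marked.
Lmf1 second probe (chr17:25722737-25722796): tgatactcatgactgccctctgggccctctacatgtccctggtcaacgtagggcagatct

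At this probe Lmf1 fell with CL316243 in LKO by 0.38 (SE 0.11, adjusted p 0.00971), from a median of -0.72 to -1.16, and its LWT difference was 0.09 (interval -0.15 to 0.32, adjusted p 0.578). The responses differed by -0.47, which did not pass (adjusted p 0.0893) but did without vehicle LWT mouse 3 (-0.55, adjusted p 0.031). The nearest patterns to the brighter probe were Yipf1 (r = 0.87), Gpr108 (r = 0.86) and Entpd4 (r = 0.85), with r of 0.85, 0.80 and 0.80 once group means were removed.

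Vldlr, the very-low-density lipoprotein receptor, was called in none of the 5 comparisons and varied widely among mice of a group. Its brighter probe starts at base 3628 of NM_013703 (chr19:27324042-27324101, plus strand) and was well above background on 23 of 24 arrays. It ran from -3.83 through a median of -2.96 to -1.92 in vehicle LWT, from -4.24 through -2.83 to -2.50 in treated LWT, from -2.49 through -1.84 to -1.39 in vehicle LKO and from -3.43 through -2.48 to -1.74 in treated LKO. Vehicle LKO had the highest median, yet it overlapped both vehicle LWT and treated LKO.

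The log2 difference of LKO from LWT under vehicle was 1.04 for Vldlr (SE 0.34, 2.05-fold, interval 0.34 to 1.74), which did not pass after adjustment (adjusted p 0.222). Within slides it was 0.28, 1.16 and 1.67. With CL316243 the difference was -0.71 in LKO (interval -1.41 to -0.01, adjusted p 0.101) and -0.15 in LWT (-0.85 to 0.56, adjusted p 0.776). The LKO difference was called in the authors' deposited series table (-0.53, adjusted p 0.0375). The second probe, at base 7955, was well above background on 7 of 24 arrays, 4 of them vehicle LKO and 1 in each other group, so it passed the filter through vehicle LKO alone and its differences are not read. The nearest patterns were Mgst3 (r = 0.82), Aqp4 (r = 0.76) and Prkg2 (r = 0.74).

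**Figure D3:**
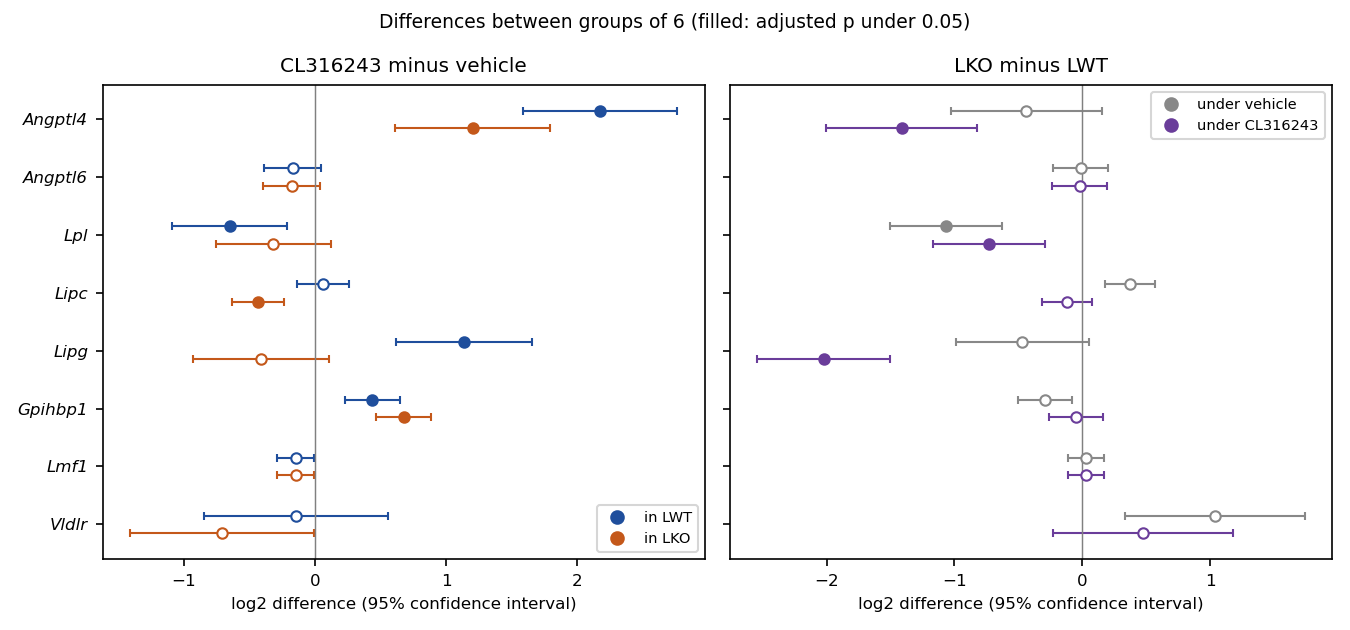
Log2 differences (horizontal axis) with 95% confidence intervals for the brightest probe of each gene, CL316243 minus vehicle in each genotype on the left and LKO minus LWT under each treatment on the right; filled points passed at an adjusted p under 0.05. Lipg and Lipc are the 2 genes whose left-hand pairs differed by the test of the difference (-1.55 and -0.49).

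Among the 8 genes, levels over the 24 mice went together most for Angptl4 with Gpihbp1 (r = 0.65), Angptl4 with Lipg (r = 0.64) and Lipc with Vldlr (r = 0.64). With group means removed these were -0.24, 0.35 and 0.50, so the first pair went together between groups and not among mice of a group. Lpl and Angptl4, enzyme and inhibitor, had an r of -0.04, and -0.05 within groups.

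Of 31 other genes of plasma lipolysis and lipoprotein uptake, 25 passed the filter; Angptl7, Lipi, Liph, Pnlip, Pnliprp1 and Pnliprp2 did not. With CL316243, 6 rose and 3 fell in LWT and 5 rose and 4 fell in LKO, 9 of the 25 in each, where 38.3% and 40.3% of all genes were called; the median log2 difference was 0.07 and 0.10. The response differed between genotypes for 3 of the 25, against 5.41% of all genes, and genotype was called for 1 under vehicle and 4 under CL316243, against 1.18% and 15.9%. The counts of each list that follow are to be read against the same shares.

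Of the 3 other angiopoietin-like genes tested, 1 fell in each genotype. This was Angptl8 (Gm6484 on the array), a feeding-induced gene that takes part in lipase inhibition, which fell by 2.58 in LWT (SE 0.59, adjusted p 0.00141) and by 1.54 in LKO (SE 0.59, adjusted p 0.0415), opposite to Angptl4. Its level ran from 4.93 through 6.38 to 6.94 in vehicle LWT against 1.93 through 3.85 to 4.97 in treated LWT. Treated LKO mice ran from 2.60 to 6.33 and overlapped their vehicle group at 5.54 to 7.68. The lowest of them was mouse 3, and the next stood at 4.59. The size of the LKO fall without mouse 3 is not given.

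Of the 6 apolipoproteins that act as cofactors, 2 rose in LWT, and 1 rose and 1 fell in LKO. Apoc2, the activator of lipoprotein lipase, rose in LWT by 0.36 (adjusted p 0.0041); its difference in LKO was 0.08 (adjusted p 0.497), and that of the responses was not called (-0.27, adjusted p 0.275). Under CL316243 its LKO level was lower by a difference of -0.55 (adjusted p 0.000176). Apoa5, which promotes lipolysis, rose by 0.34 in LWT and by 0.30 in LKO (adjusted p 0.0137 and 0.0261). Apoc4 was the 1 cofactor whose response differed between genotypes (-0.34, adjusted p 0.0468, with 1 vehicle LKO spot dropped as an outlier); its differences were 0.07 in LWT and -0.27 in LKO.

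Of the 6 genes of maturation and cleavage, 2 rose and 1 fell in LWT, and 3 rose in LKO. Calr, a chaperone of the endoplasmic reticulum, fell by 0.28 in LWT (adjusted p 0.00501) and rose by 0.27 in LKO (adjusted p 0.0072), a difference of 0.55 (SE 0.11, adjusted p 0.00263), and was higher in LKO under CL316243 by 0.43 (adjusted p 0.00027). Pcsk6, a proprotein convertase, had a difference of responses of 0.43 (adjusted p 0.0475), with 0.33 in LKO (adjusted p 0.00567) and -0.11 in LWT (adjusted p 0.384). Pcsk5, a related convertase, rose in LWT by 0.87 (adjusted p 0.00842); its difference in LKO was 0.55 (adjusted p 0.0849), and that of the responses was not called (-0.32, adjusted p 0.707).

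Of the 9 receptors and uptake genes, 2 rose and 1 fell in LWT, and 1 rose and 2 fell in LKO. Cd36, a fatty acid transporter, rose in LWT by 1.10 (adjusted p 0.00692), and its difference in LKO was -0.02 (adjusted p 0.97); the difference of responses was not called (-1.12, adjusted p 0.155). Lrp8, a relative of Vldlr, rose in LKO by 1.04 (adjusted p 0.00262), with 0.05 in LWT (adjusted p 0.907). Its difference of responses was not called (0.99, adjusted p 0.126). The LKO rise rested in part on vehicle LKO mouse 2, which stood at -4.02, while the next lowest of its group stood at -2.39. Of the 6 vehicle LKO arrays, 5 were well above background. The size of the rise without mouse 2 is not given. Lrp1, a remnant receptor, was the 1 gene of the 25 called between genotypes under vehicle, lower in LKO (-0.38, adjusted p 0.0434), and it was also lower in LKO under CL316243 (-0.59, adjusted p 6.75e-05).

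**Figure D4:**
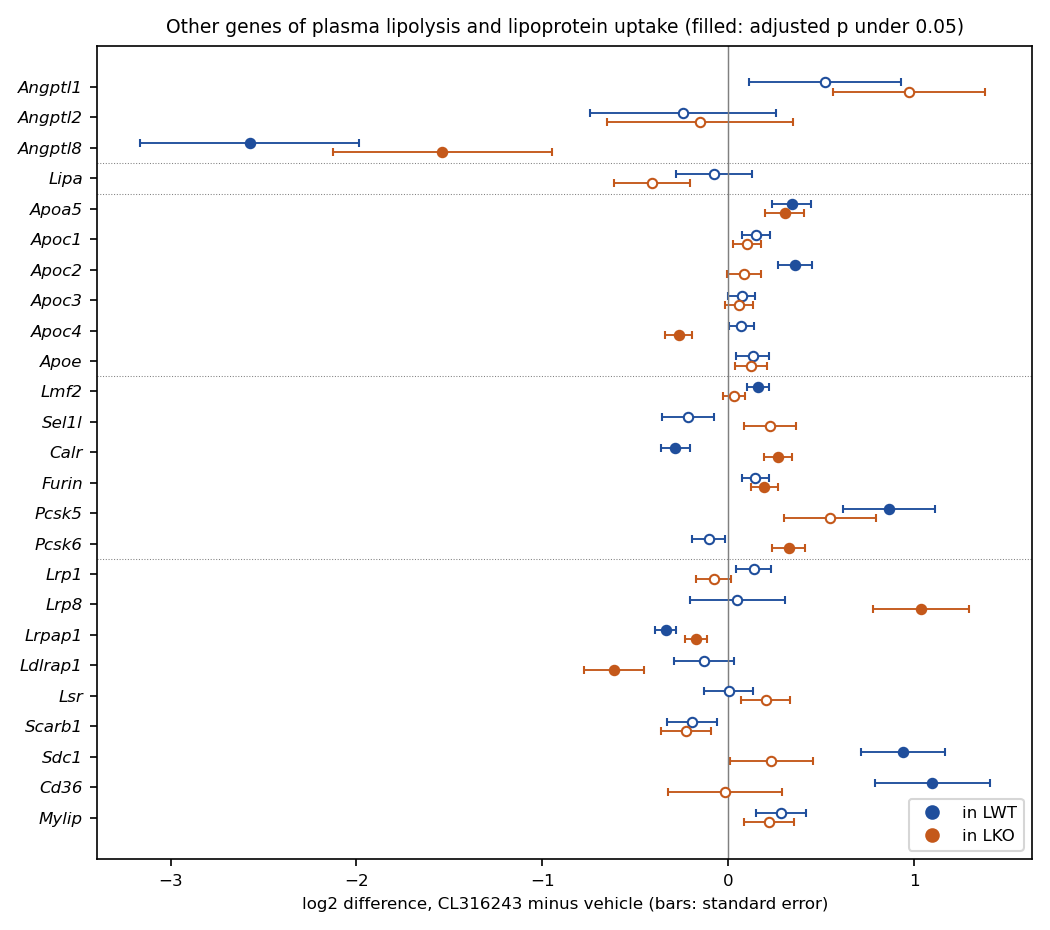
Log2 difference between CL316243 and vehicle (horizontal axis; bars are standard errors) for the 25 other genes of lipolysis and uptake that passed the filter, in LWT and LKO; filled points passed at an adjusted p under 0.05, and dotted lines part the angiopoietin-like genes, lipases, cofactors, maturation genes and receptors. Angptl8 lies farthest to the left, at -2.58 in LWT and -1.54 in LKO.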

How the data were processed

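Per the file headers, the authors read 1 Cy3 array per mouse with version 10.10.1.1 of Agilent's Feature Extraction and deposited its processed signal, an intensity already background-subtracted; limma is named in the submitters' processing notes. They also deposited a series table of log2 values whose normalization is not given in the sources used here (column medians 8.08); it served only as an alternative. Here log2 intensities had the array's 75th percentile over non-control spots subtracted, 2156 outlier spot values were removed and spots of a probe averaged. Probe positions are the array design's, on mm9. Probes well above background on 4 of 6 arrays of a group were kept (32037), the brightest per gene represented it, and limma 3.58.1 (R 4.3.3) was fitted with 1 mean per group; its recovery was checked on simulated data. The number of arrays limits the precision. The members, lists and tests were chosen with earlier results of these data known. Of the pathway lists, 3 genes are not reported here. Other genes named are the 3 nearest patterns per member, and pathway genes called in the difference of responses or largest per list and comparison. Alternatives covered normalization, background, filter, probes, slide, slide row, replicate number, spread, fold and each mouse.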

Additional observations from a re-analysis of the deposited data

Results flagged for a closer look

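Single mice stood apart from the other 5 of their group, by the gap to the nearest mouse as a share of the group's range, in 7 of 64 combinations of probe and group; chance alone gives about 1 in 20. Treated LKO mouse 3 was the lowest of its group for Angptl4 (5.11, next 5.99; share 0.685), for Lpl probe 1 (-1.28, next -0.77; share 0.667) and for Lpl probe 3 (-3.34, next -2.94; share 0.850). Vehicle LKO mouse 2 was the highest at Lpl probe 3 (-0.48, next -2.15; share 0.752). Vehicle LWT mouse 1 was the lowest for Angptl6 (2.28, next 2.71; share 0.839). Vehicle LWT mouse 2 was the lowest at the dimmer Lipg probe (-4.91, next -4.07; share 0.627). Treated LWT mouse 3 was the lowest for Vldlr (-4.24, next -3.15; share 0.626), where its spot was not well above background.

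The response to CL316243 differed between genotypes, by the test of the difference, for Lipg (-1.55, adjusted p 0.0101) and for Lipc (-0.49, adjusted p 0.0333). In all 3 slides both differences had this sign.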

How the results depend on the processing

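The number of the 8 genes called in the difference of responses was 1 in place of 2, with Lipc lost and Lipg kept, under normexp (Lipc adjusted p 0.0519), the series table (0.0604), no filter on dim probes (0.0864), the replicate number as a block (0.0557) and an added 1.5-fold requirement; leaving out each mouse gave 1 to 2. Under vehicle, 0 genes in place of 1 were called with the mean of all probes and with only the groups of the comparison (Lpl adjusted p 0.277 and 0.0624), 2 with trend and robust moderation, which added Lipc (adjusted p 0.0489), and 1 to 2 on leaving out each mouse. With only the groups of the comparison, Lpl in LWT was also not called (adjusted p 0.0548). The 1.5-fold requirement also removed Lipc in LKO and Gpihbp1 in LWT.

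Signs turned in differences that were not called: Angptl6 for the difference of responses (0.0059 in the series table; -0.075 to 0.070 without each mouse), Angptl6 for genotype under vehicle (-0.088 to 0.039) and under CL316243 (-0.085 to 0.042); Lipg in LKO (0.020 with normexp); Lmf1 for the difference of responses (0.019 with quantile normalization, 0.013 in the series table; -0.039 to 0.048 without each mouse), for genotype under vehicle (-0.0100 to 0.054) and under CL316243 (-0.053 with the mean of probes; -0.0095 to 0.077); and Vldlr in LWT (0.10 with the mean of probes; -0.33 to 0.094 without each mouse).

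Not every pair of same-numbered mice deviated together (mean correlation 0.06 against -0.01 for other numbers, lowest -0.18), so the numbers were not taken as pairs, although 10 of 24 mice best matched a mouse of their own number, a hint from the data and not the design; the replicate block changed no other call of the 8 genes. Over all genes, no filter gave 664 calls for the difference of responses against 1153 and 167 for genotype under vehicle against 251; the 1.5-fold requirement left 3801 of 8180, 3885 of 8596 and 1627 of 3393 for CL316243 in LWT, in LKO and genotype under CL316243, and fitting only those groups left 2203 in the last. Leaving out each mouse in the fit of all probes was added after the data were seen; the calls it changed are given beside each probe, other than at the dimmer Lipg probe, where LKO was at background. Signal over background limits Lipg in LKO, Lpl probes 5 and 6 and the second Vldlr probe.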

Other observations

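A pair of other genes of lipoprotein uptake, chosen after their values were seen, were called with CL316243. Lrpap1, a chaperone of lipoprotein receptors, fell by 0.34 in LWT and by 0.17 in LKO (adjusted p 9.38e-05 and 0.022). Sdc1, a proteoglycan that binds remnants, rose in LWT by 0.94 (adjusted p 0.00197), and its difference in LKO was 0.23 (adjusted p 0.433). The difference of responses was not called for either gene (adjusted p 0.297 and 0.229).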
